A study of Homo sapiens with 6 samples.

Results

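The genes described here encode the machinery of RNA polymerases I, II and III and the mitochondrial RNA polymerase. They were found by symbol among the genes measured in MDA-MB-231 cells, a triple-negative human breast cancer cell line. The rule took every gene with a POLR1, POLR2 or POLR3 symbol, POLRMT, and the initiation factors RRN3, UBTF, TAF1A to TAF1D, BRF1, BRF2, BDP1, GTF3A and GTF3C1 to GTF3C6. It found 48 of the 15651 genes listed. The search used names only, but the rule was set with earlier results of these data known. Of these 48 genes, 47 had enough reads to be tested.

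The study compared cells given BRL-50481, an inhibitor of the cAMP phosphodiesterase PDE7A, with cells given the solvent DMSO, to see how gene expression changed in the treated cells. RNA of 3 DMSO and 3 BRL-50481 cultures of this one cell line was sequenced, described as biological replicates. BRL-50481 was given at 50 µM for 72 h by the treatment protocol and the published description of the experiment, while the treatment tag of the samples reads 5 µM and 48 h. No dose or time is recorded for DMSO, and only 1 cell line and 1 inhibitor were profiled here, so an action of the compound through other proteins cannot be told apart from PDE7A inhibition. Mean PDE7A mRNA changed from 406 ± 2.06 to 298 ± 40.6 normalized counts (DMSO to BRL-50481, ± SD over 3 libraries a group), or -0.45 (SE 0.103, adjusted p = 0.00199) on the log2 scale.

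Background helps to place these genes. RNA polymerase I makes the large ribosomal RNA precursor, RNA polymerase II makes mRNAs and most snRNAs, and RNA polymerase III makes tRNAs, 5S rRNA, U6 snRNA and other short RNAs. The enzymes share a set of small subunits and differ in their large catalytic subunits and in the initiation factors that bring them to promoters. POLRMT is a single-chain enzyme that transcribes mitochondrial DNA. Growing and dividing cancer cells make much rRNA and tRNA, and the mRNA levels below are of the genes for these enzymes, not of their activity or of the rRNA and tRNA they make.

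A normalized count is the number of reads on a gene divided by a factor for the depth of its library. The libraries held between 30750573 and 33446984 reads on the listed genes, and 1 read was worth between 0.969 and 1.02 normalized counts. DMSO replicate 1 lay farthest from its group, with an SD of 0.141 for its log2 deviations from the group mean against 0.0791 to 0.119 in the other libraries. Of the markers of this cell line, VIM lay between 56075 and 88612 and CD44 between 30982 and 43852 normalized counts in all 6 libraries. FN1 lay between 13393 and 30786 and AXL between 44673 and 49831. Among markers chosen as low in this line, CDH1 lay between 31.7 and 105, GATA3 between 166 and 299 and ERBB2 between 1606 and 1979. PGR did not exceed 7.75 and ESR1 had no row. The immune markers PTPRC and CD3E and the liver marker ALB also had no row, and of the endothelial markers CDH5 did not exceed 15.1 and PECAM1 lay between 325 and 537. In bulk RNA, fewer cells of a kind and less RNA per cell cannot be told apart.

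BRL-50481 treatment was accompanied by lower mRNA of most polymerase subunits. Among the 47 genes tested, the RNA polymerase III subunits POLR3K and POLR3G fell most. Outside these 47, the RNA polymerase I subunit CD3EAP, listed under an older symbol, fell more than POLR3G (-1.65 on the log2 scale). Of the 47 genes tested, 29 were lower (61.7%), 3 were higher (6.38%) and 15 did not pass the test. Across all 15246 genes tested, 29.8% were lower and 28.9% were higher, 58.7% in all, at the same threshold, an adjusted p (limma with Benjamini-Hochberg adjustment over all genes) under 0.05. The median log2 fold change, BRL-50481 over DMSO, was -0.30 for the polymerase genes and 0.015 for all genes. For 30 genes all 3 BRL-50481 libraries lay below all 3 DMSO libraries, and for 3 all lay above, where 32.3% and 31.9% of all genes, 64.2% together, were separated in this way. A log2 fold change below -1 was reached by 2 of the 47 genes and by 2.98% of all genes, and one above 1 by 1 gene and by 5.06% of all genes. Without DMSO replicate 1 the number of higher polymerase genes was 6, and without BRL-50481 replicate 1 it was 1. The numbers of lower genes were then 29 and 24.

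Subunits of the enzymes and the factors that bring them to promoters were counted apart. Of 30 genes with POLR1, POLR2 or POLR3 symbols, counted as subunits, 22 were lower (73.3%), 2 were higher and 6 did not pass the test. Their median change was -0.45 on the log2 scale. Of 16 initiation factors, 6 were lower (37.5%), 1 was higher and 9 did not pass the test, with a median of -0.025. Among all genes 29.8% were lower and 58.7% were called in either direction. Whether the shares of subunits and initiation factors differ was not tested. Counted by enzyme with the shared subunits included, 8 of 10 subunits of RNA polymerase I were lower, 13 of 15 of RNA polymerase II and 12 of 17 of RNA polymerase III. None of the 10 was higher for RNA polymerase I, against 1 each for the others. The RNA polymerase II count takes in POLR2M, whose product binds the enzyme, and POLR2J3 and POLR2J4, copies of POLR2J. POLR2M was its 1 higher gene, and POLR2J4 is annotated as a long non-coding RNA. Without POLR2M and the POLR2J genes, 5 of the 6 genes counted to RNA polymerase II alone were lower. Several subunits stood in the table under other symbols, and with these the counts were 11 of 13 for RNA polymerase I and 13 of 18 for RNA polymerase III.

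**Figure D1:**
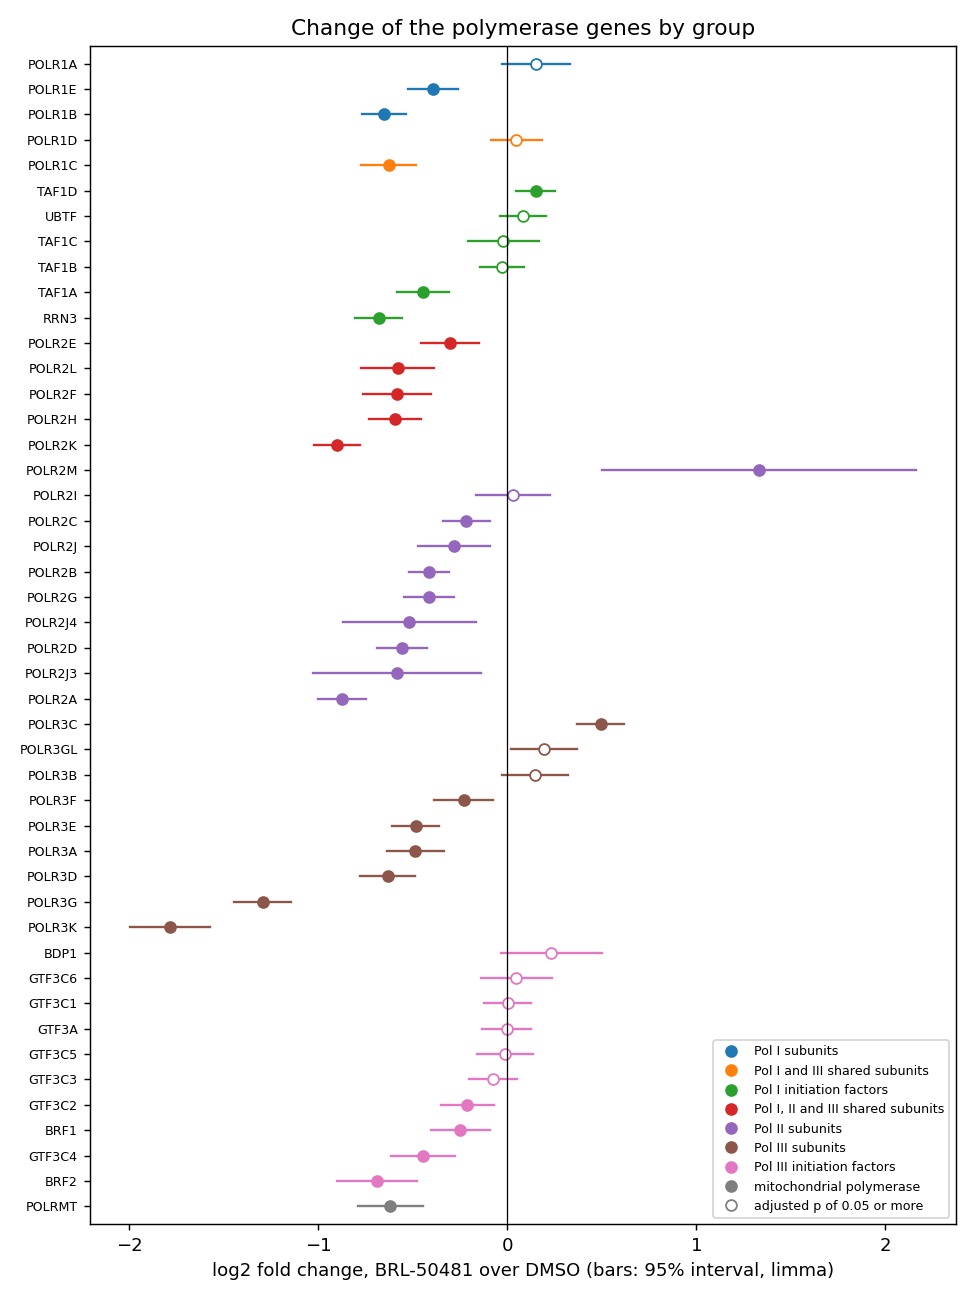
Log2 fold change of 46 of the polymerase genes tested (x axis, BRL-50481 over DMSO) with its 95% interval from limma, coloured by group, where open circles did not pass the test. POLR3K and POLR3G lie below -1, most subunits lie between 0 and -1, and most initiation factors lie near 0.

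**Figure D2:**
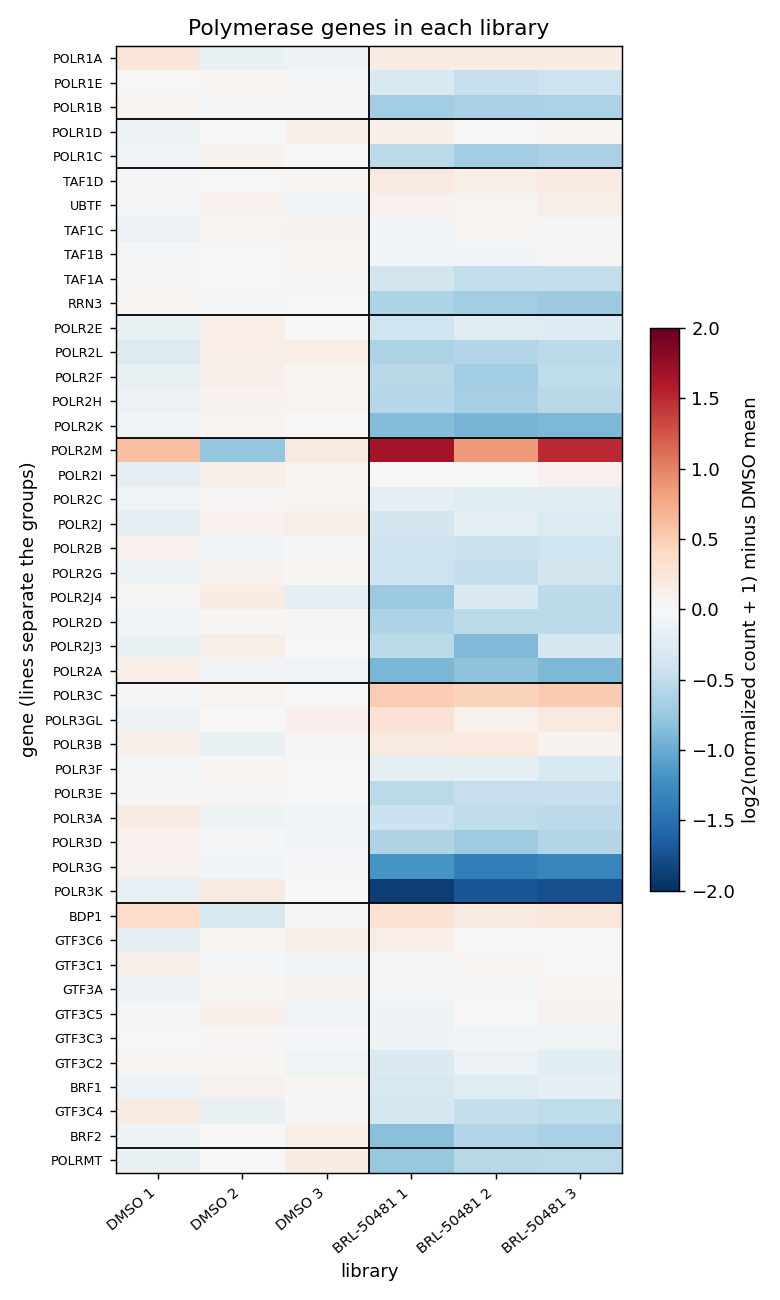
Heat map of log2(normalized count + 1) minus the mean of the DMSO libraries for 46 of the genes tested (rows, grouped by enzyme) in each of the 6 libraries (columns). The 3 BRL-50481 columns are blue for most subunits, and DMSO replicate 1 differs from the other DMSO libraries in genes such as POLR1A and BDP1.

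The promoters of 4 of these genes are shown because they cover the range of change, from POLR3K, which fell most, through POLR2A and POLRMT to POLR3C, which rose. Promoters of 37 of the 48 genes were found in the RefSeq table (GRCh38.p14), and POLR3G was among the 11 not found. Each line gives the 250 bases before the annotated start, 5′ to 3′ on the strand of the gene, with motif matches in capitals. The windows are chr16:53609-53858 (minus strand) for POLR3K, chr17:7484116-7484365 (plus strand) for POLR2A, chr19:633538-633787 (minus strand) for POLRMT and chr1:145823950-145824199 (plus strand) for the first of 2 starts of POLR3C.
POLR3K: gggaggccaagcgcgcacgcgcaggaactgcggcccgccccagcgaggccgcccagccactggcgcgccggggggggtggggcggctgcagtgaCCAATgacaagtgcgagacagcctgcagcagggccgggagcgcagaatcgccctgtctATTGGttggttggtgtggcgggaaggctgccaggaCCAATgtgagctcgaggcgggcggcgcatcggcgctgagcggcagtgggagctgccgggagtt
POLR2A: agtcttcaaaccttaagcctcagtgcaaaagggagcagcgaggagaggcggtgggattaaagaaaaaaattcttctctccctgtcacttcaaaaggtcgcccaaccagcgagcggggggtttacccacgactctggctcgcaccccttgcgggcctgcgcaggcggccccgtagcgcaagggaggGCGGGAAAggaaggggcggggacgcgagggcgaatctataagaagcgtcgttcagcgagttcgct
POLRMT: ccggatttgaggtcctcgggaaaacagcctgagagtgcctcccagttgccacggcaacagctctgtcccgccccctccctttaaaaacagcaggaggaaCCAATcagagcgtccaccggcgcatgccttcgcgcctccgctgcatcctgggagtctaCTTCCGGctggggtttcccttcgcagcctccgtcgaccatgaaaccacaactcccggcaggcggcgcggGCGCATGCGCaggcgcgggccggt
POLR3C: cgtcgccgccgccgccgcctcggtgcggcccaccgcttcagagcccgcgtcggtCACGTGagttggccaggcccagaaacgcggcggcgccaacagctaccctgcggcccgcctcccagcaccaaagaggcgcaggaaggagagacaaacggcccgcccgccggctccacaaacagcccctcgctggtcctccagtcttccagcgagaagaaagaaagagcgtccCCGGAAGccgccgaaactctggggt
In the POLR3K window the capitals mark 3 CCAAT boxes, 156, 98 and 63 bases upstream of the start, the middle one on the other strand. The POLR2A window holds an E2F match on the other strand 65 bases upstream. The POLRMT window holds a CCAAT box at 151, an ETS match on the other strand at 93 and an NRF1 match at 24 bases upstream. The POLR3C window holds an E-box at 196 and an ETS match at 25 bases upstream.

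The 6 motifs were searched on both strands from 250 bases before to 50 bases after each start, in 27305 genes. In this paragraph all genes means these 27305, whether or not they were measured in these cells. Shares among the 15246 genes tested were not taken, so a share above that of all genes may hold for expressed genes in general. They were chosen after the values were seen, and a match is a description of the letters and not a bound site. The ETS letters CCGGAAG stood in 13 of the 37 promoters (35.1%), against 10.2% of all genes. The NRF1 palindrome, TGCGC directly preceded by its reverse complement, stood in 6 (16.2%), against 1.3%. The E-box CACGTG was found in 5 (13.5%), against 7.73%, and CCAAT in 13 (35.1%), against 37.0%. The cAMP response element TGACGTCA, the palindrome bound by CREB proteins, was found in the promoters of BDP1 and GTF3C1 (5.41%, against 2.03% of all genes) and in 0 of the 20 promoters of genes that were lower. The E2F letters TTTCCCGC were found in POLR2A alone (2.7%, against 1.7%). The ETS letters stood in 7 of the 20 promoters of lower genes and in 6 of the other 17, and the NRF1 palindrome in 3 of each.

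The subunits common to RNA polymerases I, II and III fell together. All 5 were lower, by a median of -0.58 on the log2 scale, where 29.8% of all genes were lower. POLR2K, the smallest of the zinc-binding common subunits, stood at 2832, 3094 and 2989 normalized counts in the DMSO libraries and 1633, 1550.2 and 1586 in the BRL-50481 libraries. Its treated values lay well below every DMSO library, a fall of 46.5% and a log2 fold change of -0.90 (SE 0.0554, adjusted p = 3.73e-08). POLR2H, which has a fold seen in nucleic-acid-binding proteins, stood at 2068, 2358 and 2342 normalized counts in the DMSO libraries and 1515, 1426 and 1536 in the BRL-50481 libraries. The groups did not overlap, and the log2 fold change was -0.59 (SE 0.0646, adjusted p = 4.82e-06). POLR2F, a subunit needed for the stability of the assembled enzymes, was measured at 789.8, 938 and 899.9 normalized counts in the DMSO libraries and 593, 543 and 615 in the BRL-50481 libraries, -0.58 (SE 0.0827, adjusted p = 4.88e-05) on the log2 scale. POLR2L, a zinc-binding subunit at the enzyme's assembly platform, and POLR2E, at the jaw that holds the incoming DNA, changed by -0.58 (SE 0.0898, adjusted p = 0.000103) and -0.30 (SE 0.0714, adjusted p = 0.00268). Per kb of reference transcript, POLR2L had the highest DMSO level of all 48 genes, 3767 normalized counts per kb, and stood at 2499.8 after treatment.

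Among the subunits of RNA polymerase I alone, POLR1B and POLR1E were lower and POLR1A, the largest catalytic subunit, did not pass the test. POLR1B, which forms the active site with POLR1A, stood at 2512, 2400.0 and 2383 normalized counts in the DMSO libraries and 1509, 1557 and 1570.2 in the BRL-50481 libraries, and the treated libraries lay close together below all DMSO libraries. It was lower by 36.4%, with a log2 fold change of -0.65 (SE 0.0537, adjusted p = 4.23e-07). POLR1E, whose product forms the dimer that stabilizes initiation and elongation, stood at 1728, 1766 and 1668 normalized counts in the DMSO libraries and 1399, 1248 and 1285 in the BRL-50481 libraries, -0.39 (SE 0.0619, adjusted p = 0.000118) on the log2 scale. POLR1A stood at 2644, 2041 and 2081 normalized counts in the DMSO libraries and 2484, 2486 and 2487 in the BRL-50481 libraries. DMSO replicate 1 lay above the treated libraries and the other DMSO libraries lay below them. The log2 fold change of POLR1A was 0.15 (SE 0.0829, adjusted p = 0.137), with a 95% interval of -0.029 to 0.33. Without DMSO replicate 1 it was 0.27 (adjusted p = 3.62e-06), and after a correction of each library for transcript length and GC content it was -0.14 (adjusted p = 0.00996), so POLR1A has no settled direction.

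The other subunits of RNA polymerase I were listed under older symbols, which the rule did not take, and all 3 were lower. The share lower among all genes was 29.8%. CD3EAP, now named POLR1G and the partner of POLR1E in its dimer, stood at 2309, 2533 and 2331 normalized counts in the DMSO libraries and 717, 793 and 780.3 in the BRL-50481 libraries. Every treated library lay far below the lowest DMSO library, the mean was lower by 68.1%, and the log2 fold change was -1.65 (SE 0.065, adjusted p = 1.50e-09). TWISTNB, now POLR1F and part of the stalk, changed by -0.64 (SE 0.0569, adjusted p = 8.42e-07), and ZNRD1, now POLR1H and the zinc-ribbon subunit active in RNA cleavage, by -0.43 (SE 0.0851, adjusted p = 0.000755). Exons of ZNRD1 overlap another annotated RNA on the same strand.

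POLR1C and POLR1D form a dimer that RNA polymerases I and III share, and both are known from Treacher Collins syndrome. The first was called lower and the other was not called. POLR1C stood at 1363, 1504 and 1423 normalized counts in the DMSO libraries and 986, 883 and 906 in the BRL-50481 libraries, with no overlap and a log2 fold change of -0.63 (SE 0.0671, adjusted p = 4.15e-06). POLR1D stood at 2128, 2306 and 2456 normalized counts in the DMSO libraries and 2459, 2296 and 2360.2 in the BRL-50481 libraries, with overlapping groups and a log2 fold change of 0.048 (SE 0.0616, adjusted p = 0.521). Its 95% interval was -0.085 to 0.18. After correction for length and GC content POLR1D was 0.12 higher (adjusted p = 0.0286), and without DMSO replicate 1 its log2 fold change was -0.0054.

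Of the 6 initiation factors of RNA polymerase I, RRN3 and TAF1A were lower, TAF1D was higher and 3 did not pass the test. The share lower was 33.3%, against 29.8% of all genes, and 50% were called in either direction, against 58.7%. RRN3, also called TIF-IA, joins the enzyme to its promoter and is a target of growth signals. It stood at 2287, 2133 and 2181 normalized counts in the DMSO libraries and 1426, 1361 and 1332 in the BRL-50481 libraries, all treated libraries lay below all DMSO libraries, and the fall was 37.6%, -0.68 (SE 0.0571, adjusted p = 5.21e-07) on the log2 scale. RRN3 has pseudogenes, of which RRN3P3 held 31.2 ± 7.52 and 40.8 ± 7.76 normalized counts (SD, n = 3 each) and RRN3P2 at most 4.90, both far below RRN3 itself. UBTF, which binds and opens the ribosomal RNA genes, stood at 2426, 2608 and 2344 normalized counts in the DMSO libraries and 2601, 2547 and 2655 in the BRL-50481 libraries. Its groups overlapped, and its log2 fold change of 0.082 (SE 0.0556, adjusted p = 0.223) had a 95% interval of -0.038 to 0.20.

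TAF1A, TAF1B, TAF1C and TAF1D join TBP in SL1, the factor that selects the ribosomal RNA promoter. TAF1A stood at 1240.3, 1267 and 1278 normalized counts in the DMSO libraries and 981, 892 and 906 in the BRL-50481 libraries and changed by -0.45 (SE 0.0632, adjusted p = 4.81e-05). TAF1B and TAF1C did not pass the test, at -0.028 and -0.022 on the log2 scale, and both crossed 0 with another scaling. TAF1D stood at 3932, 4002 and 4161 normalized counts in the DMSO libraries and 4544, 4354 and 4519 in the BRL-50481 libraries, 0.15 (SE 0.0483, adjusted p = 0.0168) on the log2 scale. It did not pass the test without BRL-50481 replicate 1 (0.14, adjusted p = 0.0675) or without BRL-50481 replicate 3 (0.14, adjusted p = 0.0766). TAF1D is also the host of several snoRNA genes and of a microRNA gene, whose reads cannot be separated from its own.

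**Figure D3:**
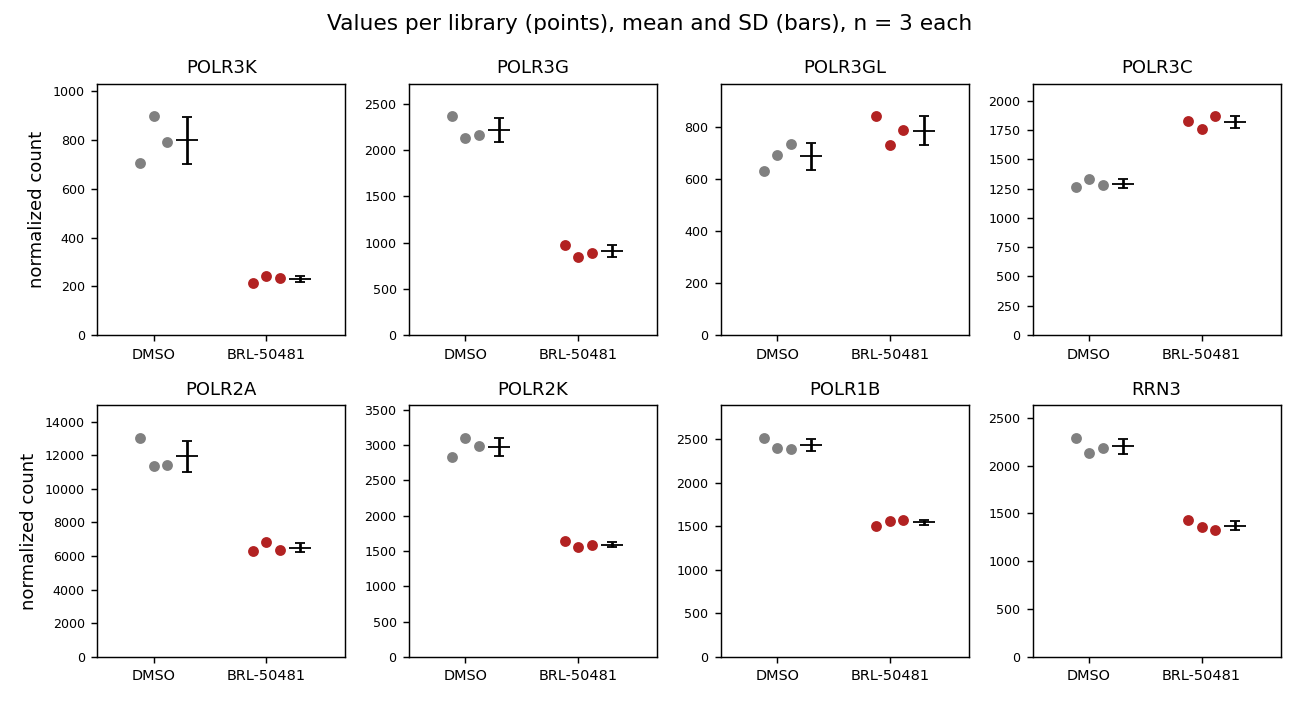
Normalized counts in each library (points) with the mean and SD (bars, n = 3 each) for 8 polymerase genes, each panel with its own linear axis from 0. The groups do not overlap for POLR3K, POLR3G, POLR3C, POLR2A, POLR2K, POLR1B and RRN3, while the lowest treated library of POLR3GL meets the highest DMSO library.

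POLR2A, which carries the catalytic site and the C-terminal repeat tail of RNA polymerase II, fell in every treated library. It stood at 13009, 11379 and 11389 normalized counts in the DMSO libraries and 6288, 6815 and 6385 in the BRL-50481 libraries, lower by 45.5%, with a log2 fold change of -0.87 (SE 0.0585, adjusted p = 7.48e-08). All treated libraries lay far below all DMSO libraries, and the highest DMSO value was that of replicate 1. Without that library the log2 fold change was -0.81. POLR2A lies at chr17:7484366-7514616 (hg38), and its promoter was shown above. POLR2B, the other large subunit, stood at 7759, 7029 and 7163 normalized counts in the DMSO libraries and 5463, 5449 and 5537 in the BRL-50481 libraries, lower in every treated library, -0.41 (SE 0.0497, adjusted p = 1.12e-05) on the log2 scale. Per kb of reference transcript the levels of both were alike in DMSO, 1889 for POLR2A and 1933 for POLR2B, and 1029 and 1449 after treatment.

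Of the 10 genes counted to RNA polymerase II alone, 8 were lower, POLR2M was higher and POLR2I did not pass the test. Their median log2 fold change was -0.42. Lower genes made up 80% here and 29.8% among all genes, and 90% against 58.7% were called in either direction. POLR2D, which forms the stalk with POLR2G, stood at 1499, 1602 and 1601 normalized counts in the DMSO libraries and 1022, 1089.9 and 1085 in the BRL-50481 libraries, -0.56 (SE 0.0608, adjusted p = 5.00e-06) on the log2 scale. Its exons overlap a processed pseudogene on the same strand. POLR2G changed by -0.42 (SE 0.061, adjusted p = 6.60e-05) and POLR2C, a subunit of the assembly platform, by -0.22 (SE 0.0579, adjusted p = 0.00591). Exons of POLR2C overlap a long non-coding RNA on the same strand. POLR2I, which acts in proofreading, stood at 428, 526 and 506 normalized counts in the DMSO libraries and 480.2, 489.5 and 517 in the BRL-50481 libraries and changed by 0.031 (SE 0.0907, adjusted p = 0.786), with a 95% interval of -0.16 to 0.23. Leaving aside POLR2M and the POLR2J genes, 5 of the remaining 6 were lower.

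The POLR2J genes are near-identical copies on chromosome 7, and reads may be split among them or lost, so their separate values are uncertain. POLR2J, which encodes the platform partner of POLR2C, stood at 767, 935 and 951 normalized counts in the DMSO libraries and 683, 767 and 728 in the BRL-50481 libraries, -0.28 (SE 0.088, adjusted p = 0.0149) on the log2 scale. POLR2J4, annotated as a long non-coding RNA, stood at 115, 126 and 100.1 normalized counts in the DMSO libraries and 67.4, 92.7 and 78.5 in the BRL-50481 libraries, -0.52 (SE 0.162, adjusted p = 0.0144) on the log2 scale. POLR2J3 changed by -0.58 (SE 0.205, adjusted p = 0.0259), and POLR2J2 was the member not tested, with at most 5.11 normalized counts in any library. None of the 3 calls in this family held when BRL-50481 replicate 1 was left out (adjusted p = 0.0773 for POLR2J, 0.0516 for POLR2J3 and 0.0694 for POLR2J4), and the number of RNA polymerase II subunits called lower was then 5. POLR2M, which encodes a protein that binds RNA polymerase II and blocks TFIIF, stood at only 16.9, 5.88 and 12.3 normalized counts in the DMSO libraries and 36.2, 20.1 and 32.0 in the BRL-50481 libraries. Its log2 fold change was 1.33 (SE 0.385, adjusted p = 0.00929), it did not pass the test without BRL-50481 replicate 1 (1.17, adjusted p = 0.0552), and its exons overlap those of GCOM1 on the same strand.

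RNA polymerase III held the deepest falls among the 47 genes and the rise with the lowest adjusted p. Of its 10 own subunits 6 were lower, POLR3C was higher and 3 did not pass the test, and their median was -0.36 on the log2 scale. That is 60% lower and 70% called in either direction, against 29.8% and 58.7% of all genes. POLR3K, the small subunit used for RNA cleavage, termination and re-initiation, lies at chr16:46407-53608 (hg38). It stood at 707, 897 and 792 normalized counts in the DMSO libraries and 214, 242 and 235 in the BRL-50481 libraries, and the groups lay far apart. The mean changed from 799 ± 95.1 to 230.2 ± 14.2, lower by 71.2%, -1.79 (SE 0.0984, adjusted p = 1.45e-08) on the log2 scale. It lay between -1.87 and -1.70 when any 1 library was left out.

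POLR3C, POLR3F and either POLR3G or POLR3GL form the trimer that opens the promoter. POLR3C was the only well-measured subunit of any of these polymerases that rose. It stood at 1262, 1335 and 1278 normalized counts in the DMSO libraries and 1830.2, 1762 and 1865 in the BRL-50481 libraries, higher by 40.8%, and every treated library lay above every DMSO library. The log2 fold change was 0.49 (SE 0.057, adjusted p = 8.15e-06), and between 0.42 and 0.54 under all 16 alternatives tried. POLR3F, its partner, changed by -0.23 (SE 0.0713, adjusted p = 0.0132) and did not pass the test without BRL-50481 replicate 3 (-0.19, adjusted p = 0.0754).

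POLR3G and POLR3GL encode alternative forms of the same subunit, and POLR3G is the form known from stem cells and tumor cells. POLR3G, at chr5:90471748-90514557 (hg38), stood at 2366, 2132 and 2164 normalized counts in the DMSO libraries and 977, 848 and 892 in the BRL-50481 libraries. It was lower by 59.2%, with a log2 fold change of -1.29 (SE 0.0689, adjusted p = 1.12e-08). POLR3GL stood at 634, 695 and 737 normalized counts in the DMSO libraries and 843, 731 and 790.0 in the BRL-50481 libraries, where BRL-50481 replicate 2 lay just below DMSO replicate 3. Its log2 fold change was 0.19 (SE 0.0806, adjusted p = 0.0531), with a 95% interval of 0.020 to 0.37, and it passed the test in 7 of the 16 alternatives, such as after centring on the median (0.22, adjusted p = 0.0287). Its exons overlap those of an unnamed protein-coding gene on the same strand.

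The balance of the alternative forms shifted, with no overlap between the groups. Reads of POLR3G per read of POLR3GL were 3.73, 3.07 and 2.93 in the DMSO libraries and 1.16, 1.16 and 1.13 in the BRL-50481 libraries. Per kb of reference transcript, where the genes can be compared in level, the ratios were 1.34, 1.10 and 1.05 in DMSO and 0.415, 0.415 and 0.404 after treatment. POLR3G was thus the more abundant form in every DMSO library and POLR3GL in every treated library on this scale. The scale takes a reference transcript for each gene, 3290 bases for POLR3G and 1178 for POLR3GL. Which form leads in DMSO depends on these lengths, while the fall of the ratio does not. The log2 ratio of reads was 1.69 ± 0.184 and 0.200 ± 0.0222 (SD, n = 3 each), a difference of -1.49, or 2.81-fold lower (exact permutation test, two-sided, p = 0.1, below which 3 against 3 libraries cannot go). Reads of both genes summed to 2909.5 ± 87.4 normalized counts in DMSO and 1693 ± 120.3 after treatment, so the sum was lower as well.

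Of the large subunits of RNA polymerase III, POLR3A fell and POLR3B did not pass the test. POLR3A, which carries the catalytic site, stood at 2905, 2423 and 2519 normalized counts in the DMSO libraries and 1941, 1833 and 1814 in the BRL-50481 libraries, with no overlap and a log2 fold change of -0.49 (SE 0.0687, adjusted p = 4.78e-05). POLR3B, the other large subunit, stood at 586, 499.6 and 553 normalized counts in the DMSO libraries and 616, 622 and 573 in the BRL-50481 libraries, with a log2 fold change of 0.15 (SE 0.0818, adjusted p = 0.141) and a 95% interval of -0.030 to 0.32. Without DMSO replicate 1 POLR3B was called higher (0.20, adjusted p = 0.0279). POLR3D and POLR3E form the dimer that resembles TFIIF, and both fell. POLR3D stood at 1350.4, 1247 and 1235 normalized counts in the DMSO libraries and 841, 776 and 853 in the BRL-50481 libraries, -0.63 (SE 0.0675, adjusted p = 4.05e-06) on the log2 scale, and POLR3E changed by -0.48 (SE 0.058, adjusted p = 1.11e-05). CRCP, a stalk subunit that the rule did not take, changed by -0.21 (SE 0.0539, adjusted p = 0.00477). Exons of CRCP overlap those of an unnamed protein-coding gene on the same strand.

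**Figure D4:**
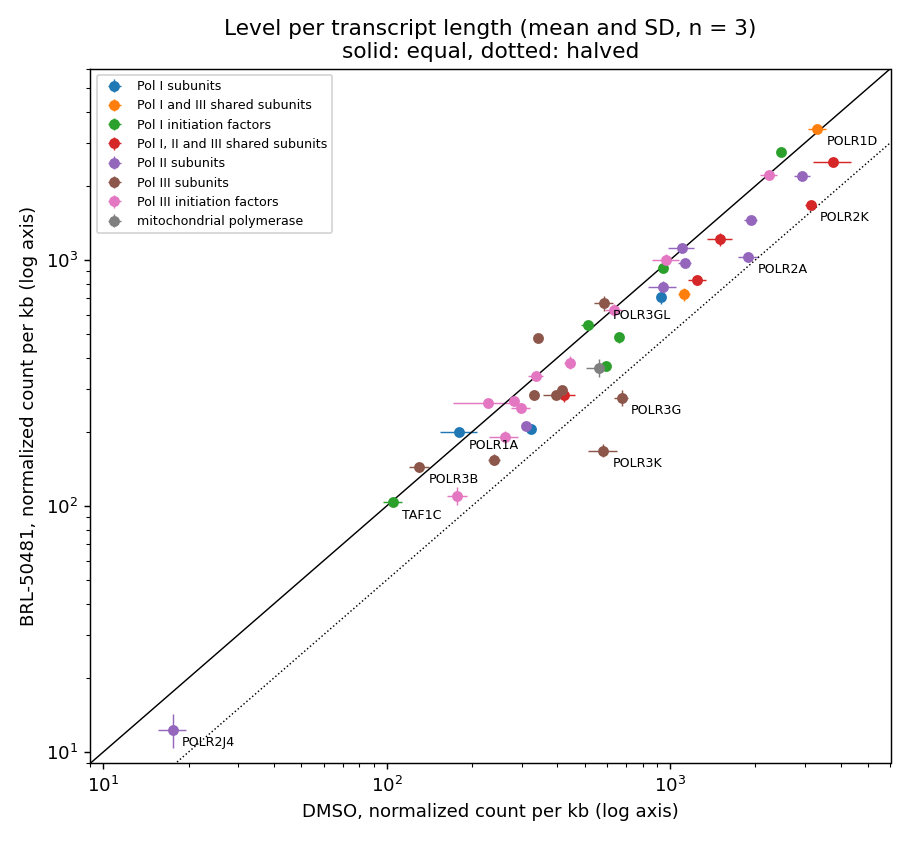
Mean normalized count per kb of reference transcript in DMSO (x axis) and BRL-50481 (y axis) libraries, both log axes, with SD bars (n = 3 each), for polymerase genes that averaged at least 50 normalized counts. Points below the solid line were lower after treatment, and POLR3K and POLR3G lie below the dotted line that marks a level divided by 2.

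The initiation factors of RNA polymerase III were mostly not called. Of 10, 4 were lower (40%), 0 were higher and 6 did not pass the test, and the median was -0.044 on the log2 scale. Among all genes 29.8% were lower and 58.7% were called in either direction. Without BRL-50481 replicate 1 the number of lower factors was 2. BRF2, which serves U6-type promoters, stood at 422, 449.6 and 494 normalized counts in the DMSO libraries and 255, 301 and 291 in the BRL-50481 libraries, and all treated libraries lay below all DMSO libraries. Its log2 fold change was -0.69 (SE 0.0981, adjusted p = 5.09e-05). BRF1, its counterpart at tRNA and 5S genes, stood at 1001, 1162 and 1118 normalized counts in the DMSO libraries and 875, 922 and 961 in the BRL-50481 libraries and changed by -0.25 (SE 0.0726, adjusted p = 0.00977), which did not pass the test without BRL-50481 replicate 1 (adjusted p = 0.0538). BDP1, the subunit of TFIIIB that both forms use, stood at 3189, 1964 and 2387 normalized counts in the DMSO libraries and 3023, 2781 and 2885 in the BRL-50481 libraries. DMSO replicate 1 was the highest and DMSO replicate 2 the lowest of all 6 libraries. The log2 fold change of BDP1 was 0.23 (SE 0.124, adjusted p = 0.125), 0.42 without DMSO replicate 1 (adjusted p = 8.76e-09) and -0.016 after correction for length and GC content.

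TFIIIC is the complex that recognizes tRNA promoters, and of its 6 genes GTF3C4 and GTF3C2 were lower, where 29.8% of all genes were. GTF3C4 stood at 2531, 2014 and 2198 normalized counts in the DMSO libraries and 1745, 1609 and 1582 in the BRL-50481 libraries, -0.45 (SE 0.0778, adjusted p = 0.000282) on the log2 scale, lower by 26.8%. After correction for length and GC content its log2 fold change was -0.67. GTF3C2 changed by -0.21 (SE 0.0649, adjusted p = 0.013) and did not pass the test without BRL-50481 replicate 1 (adjusted p = 0.0714) or replicate 3 (adjusted p = 0.0536). The other 4 and GTF3A, which encodes the 5S gene factor TFIIIA, lay between -0.077 for GTF3C3 and 0.048 for GTF3C6. Of these 5, GTF3C1, the largest subunit, was called lower after correction for length and GC content (-0.12, adjusted p = 0.00744), and GTF3C3 likewise (-0.18, adjusted p = 0.00680).

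POLRMT, the mitochondrial enzyme, stood at 1926, 2086 and 2333 normalized counts in the DMSO libraries and 1242, 1433 and 1454 in the BRL-50481 libraries. All treated libraries lay below all DMSO libraries, the mean was lower by 34.9%, and the log2 fold change was -0.62 (SE 0.0797, adjusted p = 2.14e-05). Of 8 further genes of mitochondrial transcription, 4 were lower (50%), 0 were higher and 4 did not pass the test, with a median of -0.39. Among all genes 29.8% were lower and 58.7% were called in either direction. MTERF3, a member of the mitochondrial termination factor family, changed from 1805 ± 64.8 to 895 ± 27.2 normalized counts, -1.01 (SE 0.0601, adjusted p = 2.79e-08) on the log2 scale. MTERF1 changed by -0.63 (SE 0.0983, adjusted p = 0.000104). TFAM, which packs mitochondrial DNA and starts its transcription, and TFB2M, which opens its promoters with POLRMT, were the other two, at -0.59 and -0.57.

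The genes that work with RNA polymerase II were examined from lists set by function. Of 30 genes of its general initiation factors, 22 were lower (73.3%) and 4 higher (13.3%), and the median change was -0.28 on the log2 scale. Among all genes 29.8% were lower and 28.9% higher. The member with the largest change rose. GTF2A1, which encodes the large TFIIA precursor, changed from 1627 ± 118 to 3168 ± 139 normalized counts, 0.96 (SE 0.0629, adjusted p = 6.14e-08) on the log2 scale, while GTF2A2, its small partner, changed by -0.74 (SE 0.063, adjusted p = 5.69e-07). CCNH, the cyclin of the TFIIH kinase, changed from 3434 ± 127 to 1880.2 ± 114, -0.87 (SE 0.0585, adjusted p = 7.85e-08). TBP, which RNA polymerases I, II and III all use, did not pass the test at -0.17 (SE 0.0694, adjusted p = 0.0554).

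Mediator and the elongation factors lay nearer to the shares of all genes, 29.8% lower and 28.9% higher. Of 32 Mediator genes 13 fell (40.6%) and 9 rose (28.1%), at a median of -0.073. MED31, of the middle module, changed by -0.83 (SE 0.0876, adjusted p = 3.85e-06), and MED26, which links Mediator to elongation factors, by -0.56 (SE 0.0744, adjusted p = 2.85e-05). Exons of MED26 overlap other genes on the same strand. Of 24 pausing and elongation factors 11 fell (45.8%) and 5 rose (20.8%), at a median of -0.17. PAF1, of the complex that travels with the elongating enzyme, changed by -0.56 (SE 0.052, adjusted p = 1.22e-06). ELL2, of the super elongation complex, rose by 0.53 (SE 0.0545, adjusted p = 2.80e-06).

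Factors that build the enzymes or control RNA polymerases I and III were either lower or not called. Of 12 assembly and import factors 6 were lower (50%) and 0 higher, at a median of -0.24 on the log2 scale. Among all genes 29.8% were lower and 58.7% were called in either direction. RPAP2, a phosphatase of the RNA polymerase II tail that also acts in assembly, changed by -0.66 (SE 0.0632, adjusted p = 1.59e-06), and GPN3, a GTPase needed for nuclear import of the enzyme, by -0.57 (SE 0.0581, adjusted p = 2.63e-06). Of 9 genes of the snRNA activating complex and regulators 6 were lower (66.7%) and 0 higher, at a median of -0.26. SNAPC5, a small subunit of the snRNA activating complex, changed by -0.56 (SE 0.0989, adjusted p = 0.000289), and TTF1, which ends transcription of the ribosomal RNA genes, by -0.41 (SE 0.07, adjusted p = 0.000245). Exons of SNAPC5 overlap a long non-coding RNA on the same strand. MAF1, the repressor of RNA polymerase III, was lower as well, at -0.26, as was SSB, the La protein that binds new RNA polymerase III transcripts, at -0.28.

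**Figure D5:**
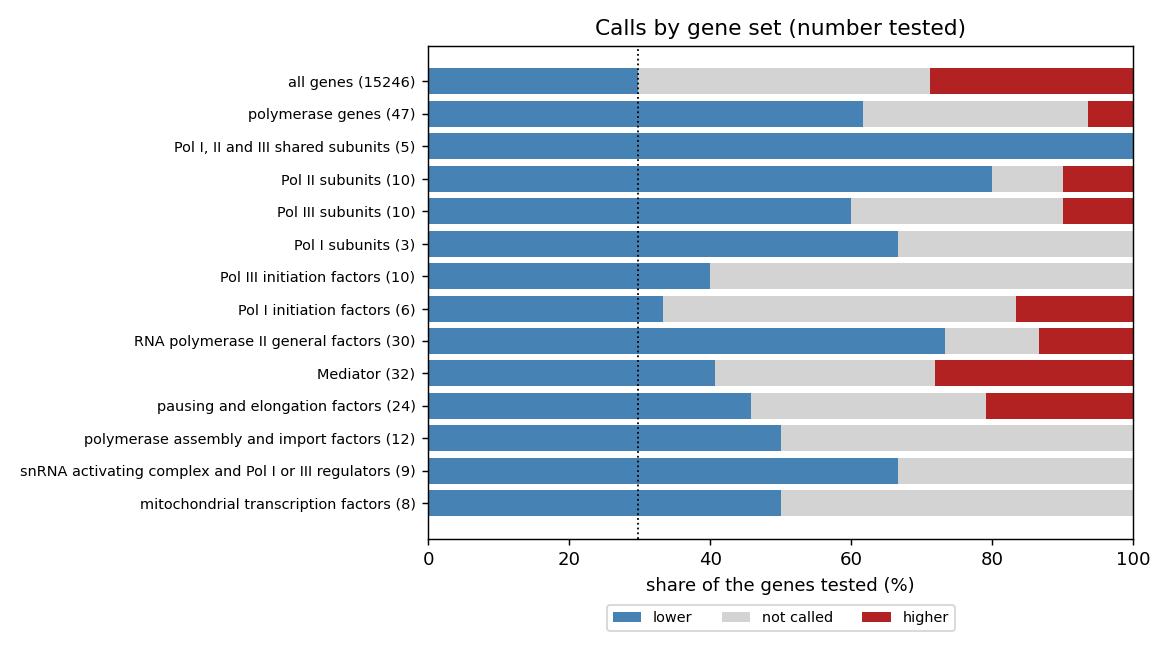
Share of the genes tested (x axis, percent) that were lower, not called or higher in each gene set, with the number tested in brackets and the share of lower genes among all genes as a dotted line. All 5 common subunits were lower, while the initiation factors of RNA polymerases I and III lie nearest to the line.

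Transcript length moved with the measured change, so the counts were repeated after a correction of each library for length and GC content. Across genes, which are not independent, Spearman's rho between the log2 fold change and the length of the reference transcript was 0.175. The median length was 3290 bases for the 47 genes and 3173 for all genes tested. After the correction 32 of the 47 were lower and 5 higher, where 37.4% of the 14732 genes with a known length were lower and 28.3% higher, so lower calls rose among all genes as well. The median was then -0.28 on the log2 scale, against -0.039 for all genes. The common subunits (5 of 5 lower), the subunits of RNA polymerase II (8 of 10) and those of RNA polymerase III (6 of 10) kept their counts, while 6 of 10 initiation factors of RNA polymerase III were then lower.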

How the data were processed

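Poly(A) RNA (per the extraction labels, while the series text names ribosomal RNA depletion) was sequenced from 6 cultures. The authors aligned reads to hg38 with STAR 2.7.1a, counted them on the reverse strand with HTSeq and divided counts by DESeq2 1.28 size factors. The deposited signal is this normalized count, and every value was a whole multiple of the value of 1 read (tolerance 1e-06). The table's own fold changes and p-values were not used. Genes with at least 4 normalized counts in at least 3 libraries (15246 of 15651) were tested on log2(value + 1) with limma 3.58.1 (trended variance, R 4.3.3), Benjamini-Hochberg adjusted, so fold changes of low genes are understated. The test was checked on simulated data with the same spread setting for every gene and few changed genes. That setting is simpler than these data, so the check does not vouch for the calls here. Planned count-based tests were not run. Transcript length, GC content and coordinates came from GENCODE (hg38), with length and GC content for 15101 genes (96.5%). Values per kb assume the reference transcript.

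Members, lists and tests were chosen with earlier results of these data known. Named with values in every library were the large subunits, POLRMT, POLR3G, POLR3GL, RRN3, UBTF and the 3 called genes of largest change per group with a mean of at least 50. From each list the 2 called genes of largest change were named. Other genes were added after their values were seen. The p-values measure the spread between 3 cultures a group. Intervals are 95%. Values of 1 tested gene are not reported here, though the counts and medians include it. Replicate numbers were checked for pairing by the correlation of same-numbered libraries' deviations.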

Additional observations from a re-analysis of the deposited data

How the results depend on the processing

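Results were recomputed under 16 alternatives, namely other pseudocounts (0.5 and 4), no filter on low values, a mean of at least 20, quantile normalization, median centring, no variance trend, a replicate block, a length and GC correction with and without the block, and each library left out. Of the 32 polymerase genes called, 24 kept their call in every alternative, 23 of them lower and POLR3C higher. The 8 that lost it in at least 1 were BRF1, GTF3C2, POLR2J, POLR2J3, POLR2J4, POLR2M, POLR3F and TAF1D. The count of lower genes lay between 24 and 32. The count of higher genes was 6 with quantile normalization, 5 with the length and GC correction and 5 with the block and that correction, and between 1 and 6 with 1 library left out. With 1 library left out the lower subunits of RNA polymerase II numbered 5 to 8 and the lower initiation factors of RNA polymerase III 2 to 4.

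Samples with the same replicate number were not known to share a batch, and their deviations correlated at 0.121, 0.104 and 0.0514 for numbers 1, 2 and 3 over 12251 genes. BRL-50481 replicate 3 correlated best with DMSO replicate 2 (0.0607). With the replicate block 29 polymerase genes were lower and 4 were higher, BDP1 (0.23, adjusted p = 0.0394) being the addition. The numbers of all genes lower and all genes higher were then 4589 and 4440. No other call of a polymerase gene changed with the block alone.

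Among the genes reported one by one, directions turned only for those that were not called. With the length and GC correction, with or without the block, the log2 fold change was -0.016 for BDP1, 0.014 for GTF3A, -0.12 for GTF3C1, 0.029 for GTF3C5, -0.14 for POLR1A and -0.0055 for UBTF. With quantile normalization it was 0.055 for GTF3A, 0.037 for GTF3C5 and 0.035 for TAF1B. With median centring it was 0.027 for GTF3A, 0.019 for GTF3C5, 0.0021 for TAF1B and 0.0084 for TAF1C. With 1 library left out it ranged from -0.062 to 0.032 for GTF3A, from -0.026 to 0.050 for GTF3C1, from -0.050 to 0.042 for GTF3C5, from -0.045 to 0.11 for GTF3C6, from -0.0054 to 0.098 for POLR1D, from -0.058 to 0.091 for POLR2I and from -0.084 to 0.0099 for TAF1C. The cause was not tested. Planned count-based tests were not run. Depth does not limit the genes named with values, except POLR2M and POLR2J3, which held under 50 normalized counts on average.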

Other observations

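Of the 32 Mediator genes 9 rose (28.1%), near the 28.9% of all genes that were higher. Of these 9 genes, 4 belong to the kinase module of Mediator, a grouping chosen after the values were seen. This module, which can hold Mediator away from RNA polymerase II, is built from MED12, MED13 or MED13L, cyclin C and CDK8 or CDK19. MED12 changed from 1406 ± 181 to 2031 ± 53.7 normalized counts (± SD over 3 libraries a group), 0.54 (SE 0.079, adjusted p = 6.72e-05) on the log2 scale, and MED13L from 3956 ± 651 to 5399 ± 179, 0.46 (SE 0.088, adjusted p = 0.000567). CCNC changed by 0.40 (SE 0.0582, adjusted p = 6.41e-05) and MED13 by 0.36 (SE 0.0924, adjusted p = 0.00435). The kinases did not pass the test, at 0.14 (SE 0.0802, adjusted p = 0.158) for CDK8 and 0.15 (SE 0.0967, adjusted p = 0.209) for CDK19, and CDK19 groups overlapped. The other 5 that rose lie outside the module, from 0.17 for MED24, 0.21 for MED14 and 0.27 for MED1 to 0.33 for MED16 and 0.38 for MED7 on the log2 scale, so the rise was not particular to the module. Exons of MED7 overlap those of HAVCR2 on the same strand. For MED13, DMSO replicate 1 (3905 normalized counts) lay just below BRL-50481 replicate 3 (3940). The reference transcript is 10461 bases long for MED13 and 9885 for MED13L. After correction for length and GC content, 16 of the 32 Mediator genes were lower and 8 higher. Of all genes with a known length, 37.4% were then lower and 28.3% higher. The part of transcript length in the rise of the kinase module was not tested.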
